A study of Mus musculus with 24 samples.

Results

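The TRBJ1 cluster is the first of the 2 groups of joining (J) gene segments in the mouse T cell receptor beta (TCRβ) locus. Its members were taken from the TRB tables of all 24 tumors as every sequence with a J segment named TRBJ1, no stop codon mark and a count of at least 2. The rule gave 20157 of 75357 TRB sequences and 1603566 of 7463100 counts, or 26.7% of the sequences and 21.5% of the counts. Joined by V segment, J segment and CDR3 amino acid sequence into clonotypes, these were 14111 of 47705 distinct clonotypes over all tumors. The members TRBJ1-1 to TRBJ1-5 held 17485 of the sequences. TRBJ1-6 was called for the other 2672 and is counted with the cluster, and no sequence carried the name TRBJ1-7. TRBJ1-1 had 6771 sequences, TRBJ1-4 had 3738, TRBJ1-3 had 2815, TRBJ1-2 had 2790 and TRBJ1-5 had 1371.

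The tumors were whole subcutaneous tumors of CT26.CL25, a mouse colon carcinoma line, with 1 on each flank of female BALB/c mice that were 7 to 9 weeks old when obtained. There were 12 mice in 4 groups of 3 mice, and each mouse gave 2 tumors. In the time-matched group (mice 6, 12 and 14) neither mouse nor tumor received a drug and both tumors were taken 13 days after inoculation. In the time-separated group (mice 4, 17 and 19) 1 tumor was removed at surgery and the other was taken 11 days later, without decitabine. The groups named decitabine 0.5 mg/kg (mice 3, 11 and 20) and decitabine 2 mg/kg (mice 7, 10 and 16) followed the same 2 dates. Their mice were given decitabine, an inhibitor of DNA methyltransferases, on 5 days in a row from 3 days after surgery, with the second tumor taken 4 days after the last dose. The earlier tumor of a treated mouse was therefore removed before any drug was given. The labels do not say which of the tumors numbered 1 and 2 was the earlier, so no difference between the tumors of a mouse has a direction in time here. The mouse is the replicate throughout, and the value of a mouse is the mean of its 2 tumors. In a treated mouse this mean joins 1 tumor taken before the drug and 1 taken after it. The group comparisons therefore do not set apart the tumors exposed to decitabine.

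A TCRβ chain is made when a V, a D and a J segment are joined in a developing T cell, and the bases lost and added at the joins make the third complementarity-determining region (CDR3), the part of the chain that lies over the bound peptide. In the annotation of the mouse genome the locus runs from TRBD1 through the TRBJ1 segments and the constant gene TRBC1 to TRBD2, the TRBJ2 segments and TRBC2. TRBD1 can join to either J cluster, while TRBD2 lies behind the TRBJ1 cluster and can join directly only to TRBJ2 segments. T cells descended from 1 founder carry the same join, so the CDR3 is used as a tag of a clone.

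The 3′ ends that the TRBJ1 segments give to the CDR3 are shown because they tell the members apart and differ in length. Each is the run of bases, read back from the end of the CDR3, at which 1 base was found in at least 50% of the sequences of that segment. The last codon, for phenylalanine, is in capitals.
TRBJ1-1: aacacagaagtcttcTTT
TRBJ1-2: aaactccgactacaccTTC
TRBJ1-3: ttctggaaatacgctctatTTT
TRBJ1-4: ccaacgaaagattatttTTC
TRBJ1-5: acaaccaggctccgcttTTT
TRBJ1-6: ataattcgcccctctacTTT
The shared end of TRBJ1-1 was the shortest of the 6, with 18 bases, and that of TRBJ1-3 the longest, with 22. That of TRBJ1-2 had 19 bases and those of the remaining segments 20. The ends were read from joined sequences, which can lack bases of the J segment, so these are not the lengths of the segments. The whole end was present in 45.3% (TRBJ1-5) to 56.6% (TRBJ1-6) of the sequences, shares that follow in part from the limit of 50% used to define it.

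The TRB tables held 63291 to 887567 counts per tumor (median 206448) and 777 to 3746 clonotypes. The time-matched tumors, with 375898 to 610800 counts, were all deeper than the time-separated tumors, with 97815 to 207072, and than the decitabine 0.5 mg/kg tumors, with 63291 to 199081. The counts of the decitabine 2 mg/kg tumors, 64192 to 887567, spanned these ranges. A median of 44.2% of the TRBJ1 sequences of a tumor (range, 23.7% to 73.0%) differed at 1 base from a sequence of the same V and J segment with at least 10 times its count. They carried a median of 4.05% of the TRBJ1 counts. For the other TRB sequences these medians were 54.1% and 5.72%. Such near copies add to the number of clonotypes around a large clone, so values with their counts added to the larger sequence are given beside the clonotype results as merged values. The constant gene was called TRBC1 for 99.9% of the TRBJ1 and 99.96% of the TRBJ2 sequences, so this call does not separate the clusters. In whole tumors, fewer cells of a clone and less receptor RNA per cell cannot be told apart.

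TRBJ1 segments made up 22.0% ± 9.71 of the TRB counts of a mouse (SD, n = 12), with a wide spread between mice. The share was lowest in the tumors of mouse 16, at 5.07% in tumor 1 and 3.31% in tumor 2, and highest in those of mouse 10, at 43.8% and 37.1%. Both mice had received decitabine 2 mg/kg, so this group spanned the whole range. Across the 24 tumors the median was 23.4%, and the 95% exact binomial intervals, which cover counting error only, were at most 0.564 percentage points wide. The time-matched tumors ran from 11.2% to 31.7% around a median of 24.1%, and the time-separated tumors from 16.5% to 32.2% around 25.4%. In the decitabine 0.5 mg/kg mice the tumors ran from 10.2% to 23.3% around 16.9%, and in the 2 mg/kg mice their median was 24.2%. These tumors include those removed before the drug. The groups overlapped throughout. Their means over mice were 22.2% ± 9.37 (SD, n = 3) time-matched, 25.7% ± 4.50 time-separated, 17.3% ± 5.08 with decitabine 0.5 mg/kg and 22.9% ± 18.2 with 2 mg/kg. The highest and lowest of these means lay 8.39 percentage points apart, which an exact permutation test over the 12 mice did not separate from the spread between mice (adjusted exact p = 0.867 over the cluster and its 5 listed segments). Without the largest TRB clonotype of each mouse these means lay 13.8 percentage points apart (adjusted exact p = 0.276). With 1 mouse left out they lay from 5.96 (without mouse 3) to 15.0 (without mouse 16) apart, never passing.

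The share of clonotypes was steadier than the share of counts. TRBJ1 segments made up 27.6% ± 5.11 of the clonotypes of a mouse (SD, n = 12), with tumors between 16.2% and 38.9%, and 30.8% ± 2.94 after near copies were merged. The group means were 28.8% ± 1.28 time-matched, 28.4% ± 3.49 time-separated, 26.2% ± 3.70 with decitabine 0.5 mg/kg and 27.3% ± 10.5 with 2 mg/kg. They did not differ beyond the spread between mice (exact permutation test, adjusted p = 0.931, and 0.986 for merged values). Set against all 9 mice whose tumors were taken 11 days apart, the time-matched mice differed by 0.21 percentage points in the share of counts (exact permutation test, p = 0.991) and by 1.50 in the share of clonotypes (exact p = 0.664). The latter ran from 0.178 without mouse 16 to 2.80 without mouse 10, never passing. Without the largest TRB clonotype of each mouse the count-share difference was 10.4 percentage points (exact p = 0.0955). With 1 mouse left out the count-share difference ran from -3.92 to 5.30, so its sign was not stable, and it never passed. The smallest p that 3 mice against 9 can give is 0.00455, while 3 against 3 cannot go below 0.1, so no pair of groups of 3 could pass the threshold of 0.05.

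**Figure D1:**
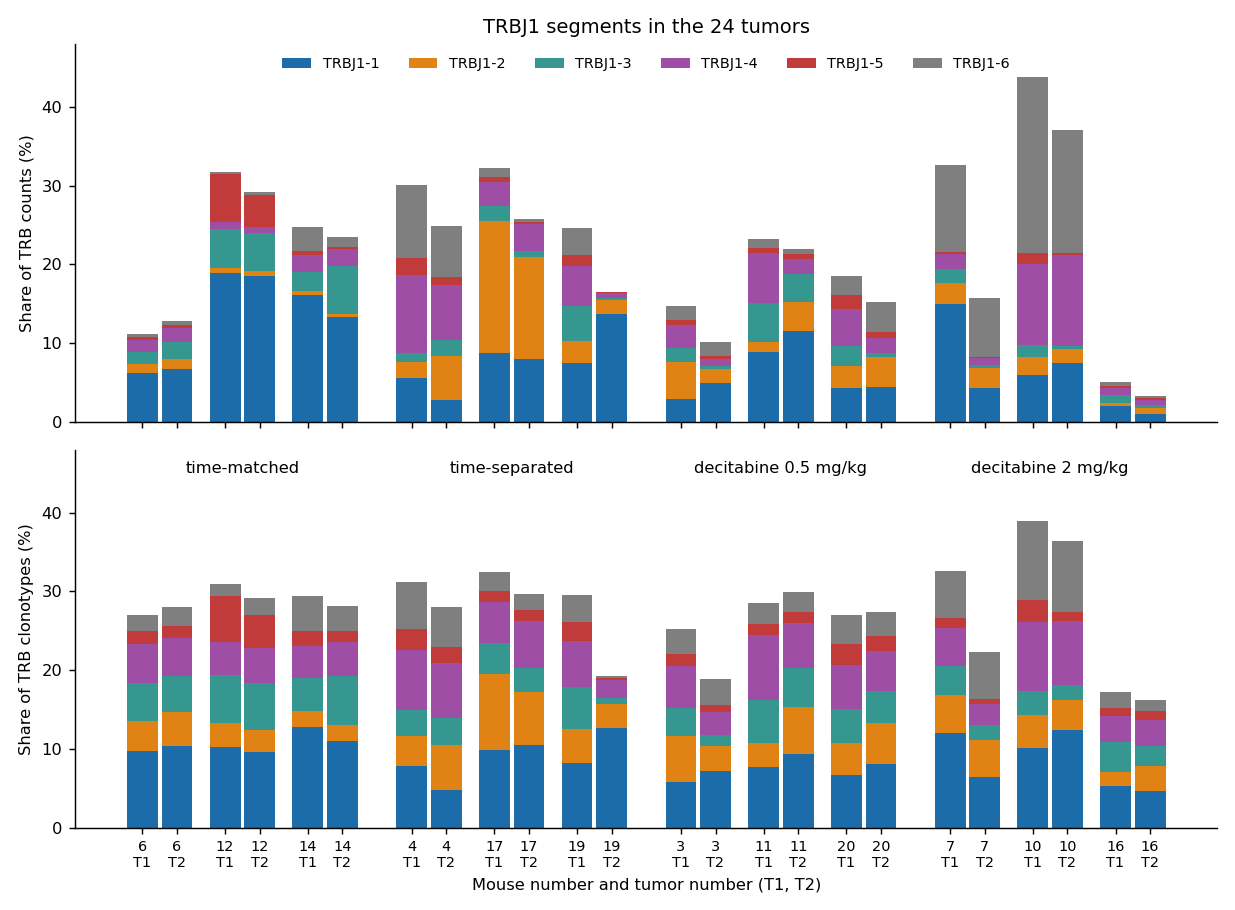
Share of TRB counts (upper panel) and of TRB clonotypes (lower panel), in percent, of each TRBJ1 segment in the 24 tumors, ordered by group and labelled with mouse and tumor number. Each bar is 1 tumor and its coloured parts are the segments TRBJ1-1 to TRBJ1-6. The highest and the lowest bars for counts, those of mouse 10 at 43.8% and 37.1% and of mouse 16 at 5.07% and 3.31%, belong to 1 group, decitabine 2 mg/kg.

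Within the cluster TRBJ1-1 was the most and TRBJ1-5 the least used segment in most tumors. By share of clonotypes TRBJ1-1 led with 8.87% ± 2.16 (SD, n = 12 mice), ahead of TRBJ1-4 with 5.20% ± 1.60, TRBJ1-2 with 4.21% ± 1.55, TRBJ1-3 with 3.86% ± 1.19, TRBJ1-6 with 3.65% ± 2.33 and TRBJ1-5 with 1.85% ± 1.09. TRBJ1-1 was the most used TRBJ1 segment by clonotypes in 22 of 24 tumors and TRBJ1-5 the least used by clonotypes in 22 of 24, or by counts in 18 of 24. Of the 10 pairs among the 5 listed segments, 8 differed beyond the spread between mice (exact sign-flip permutation test, adjusted over the 10 pairs). TRBJ1-2 and TRBJ1-3 did not separate (difference 0.348 percentage points ± 2.22, adjusted exact p = 0.593), nor did TRBJ1-2 and TRBJ1-4 (-0.995 ± 1.83, adjusted exact p = 0.0955). With near copies merged the second of these pairs also separated: TRBJ1-4 stood at 6.54% against 4.72% for TRBJ1-2 and was the higher in 12 of 12 mice (adjusted exact p = 0.000543). TRBJ1-6 did not separate from TRBJ1-2 or TRBJ1-3 (adjusted exact p = 0.571 and 0.820 over 15 pairs).

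By share of counts the order was looser. The means were 8.28% for TRBJ1-1, 3.97% for TRBJ1-6, 3.46% for TRBJ1-4, 3.13% for TRBJ1-2, 2.15% for TRBJ1-3 and 1.03% for TRBJ1-5, and TRBJ1-1 was the largest segment in 15 of 24 tumors. Only 6 of the 10 pairs separated: TRBJ1-1 from each of the other 4 listed segments, and TRBJ1-5 from TRBJ1-3 and TRBJ1-4. Over all 15 pairs with TRBJ1-6 added, 3 remained past the threshold. Without mouse 6, 7, 11, 14, 19 or 20 the 6 fell to 3 in each case.

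**Figure D2:**
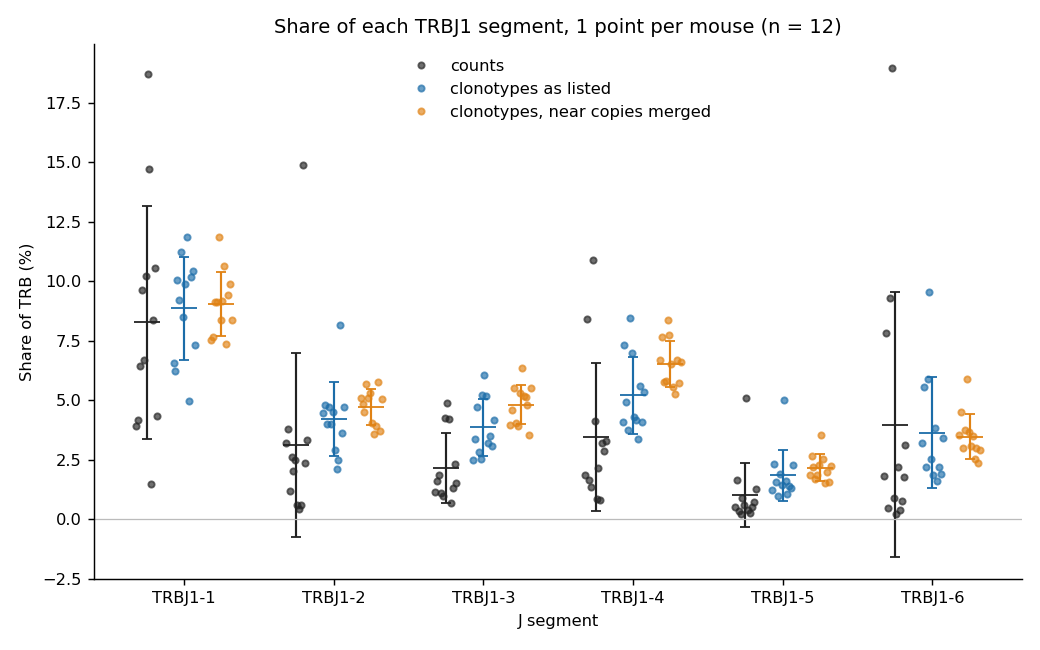
Share of TRB, in percent, of each TRBJ1 segment, by counts (black), by clonotypes as listed (blue) and by clonotypes with near copies merged (orange). Each point is 1 of 12 mice, the mean of its 2 tumors, and bars are the mean and SD over mice. TRBJ1-1 has the highest and TRBJ1-5 the lowest mean on each measure, and the points spread most for counts, where mouse 10 reaches 19.0% in TRBJ1-6 and mouse 17 reaches 14.9% in TRBJ1-2.

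TRBJ1-1 reached its highest shares in time-matched tumors. Its share of the counts was 18.9% and 18.6% for the tumors of mouse 12. Mouse 14 had 16.2% and 13.3%, and mouse 6 had 6.22% and 6.71%. Over the other 18 tumors it ran from 0.968% in tumor 2 of mouse 16 to 15.0% in tumor 1 of mouse 7, so mouse 6 lay inside their range and mouse 12 above it, with mouse 14 on both sides of its upper end. The time-matched mean was 13.3% ± 6.26 (SD, n = 3) against 6.60% ± 3.26 in the 9 time-separated mice with and without drug (exact permutation test, p = 0.0318, adjusted exact p = 0.111 over the cluster and 6 segments). This difference did not pass after adjustment. The time-matched libraries were also the deeper ones, which was not tested as a part of this difference.

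TRBJ1-3 was the other segment whose time-matched values lay toward the top. Its share of counts was 1.52% and 2.21% in the tumors of mouse 6. Mouse 12 had 4.97% and 4.81%, and mouse 14 had 2.30% and 6.16%. In the time-separated tumors with and without drug it ran from 0.220% in tumor 2 of mouse 19 to 5.02% in tumor 1 of mouse 11. By clonotypes the time-matched mean was 5.33% ± 0.687 against 3.37% ± 0.866 (exact permutation test, p = 0.0136, adjusted exact p = 0.0955 over the cluster and 6 segments). The groups overlapped and the difference missed the threshold after adjustment, as it did for counts (exact p = 0.0227, adjusted exact p = 0.111). Over all 4 groups the clonotype share gave exact p = 0.0403 (adjusted exact p = 0.242 over 6 tests), and exact p = 0.150 once near copies were merged.

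TRBJ1-2 was rare in counts except in mouse 17. That mouse, of the time-separated group, had 16.8% and 13.0%, while the remaining 22 tumors had at most 5.69%. The time-matched tumors ran from 0.346% to 1.28%, and their mean of 0.750% ± 0.398 lay below 7.03% ± 6.86 in the time-separated, 3.01% ± 0.463 in the decitabine 0.5 mg/kg and 1.74% ± 1.04 in the decitabine 2 mg/kg mice. Mouse 16, treated with 2 mg/kg, overlapped the time-matched mice with 0.387% and 0.807%, as did tumor 1 of mouse 11, treated with 0.5 mg/kg, with 1.27%. An exact permutation test over the 4 groups gave exact p = 0.0468 (adjusted exact p = 0.239).

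TRBJ1-4 and TRBJ1-6 were both high in mice 4 and 10. TRBJ1-4 took 10.3% and 11.5% of the counts in mouse 10 and 9.93% and 6.87% in mouse 4, against 0.597% to 6.34% in the other 20 tumors. TRBJ1-6 took 22.3% and 15.6% in mouse 10 and 11.1% and 7.45% in mouse 7, while mouse 4 had 9.23% and 6.46%. The other 18 tumors had between 0.0938% and 3.79% of TRBJ1-6, so these 3 mice stood apart from all others in both of their tumors. No test over the 4 groups separated either segment (exact permutation tests, adjusted p = 0.867 over 6 tests for TRBJ1-4 and 0.395 over 7 for TRBJ1-6).

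TRBJ1-5, the least used member, exceeded 3% of the counts in mouse 12 alone, with 6.14% and 4.08%. Its lowest value was 0.0432%, in tumor 2 of mouse 19, and its median over the 24 tumors was 0.534%. The 4 groups did not differ beyond the spread between mice (exact permutation test, adjusted p = 0.867).

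The TRBJ1 cluster held less of the counts than of the clonotypes. The difference was -5.61 percentage points ± 5.43 (SD, n = 12 mice), with the count share the lower in 10 of 12 mice and 19 of 24 tumors (permutation test by exact sign flips, adjusted p = 0.00781). With near copies merged it was -8.74 and the count share was lower in 21 of 24 tumors (adjusted exact p = 0.00488). The result rested on the largest clonotypes: without the largest TRB clonotype of each mouse the difference was -2.16 and no longer passed (adjusted exact p = 0.393). Among the segments TRBJ1-3 was lower by counts in 12 of 12 mice (-1.71, adjusted exact p = 0.00293). TRBJ1-5 (-0.814, adjusted exact p = 0.00293) and TRBJ1-4 (-1.75, adjusted exact p = 0.0168) also passed, although both were lost without the largest clonotypes. TRBJ1-1 (-0.595, adjusted exact p = 0.609), TRBJ1-2 (-1.08, adjusted exact p = 0.195) and TRBJ1-6 (0.326, adjusted exact p = 0.827) did not pass. The signs of TRBJ1-1 and TRBJ1-6 turned without the largest clonotypes, and that of TRBJ1-6 also without mouse 10 (-0.499).

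By size order within a tumor, given as a description without a test, TRBJ1 clonotypes filled 23.3% ± 10.9 (SD, n = 12 mice) of the places among the 10 largest clonotypes, 28.2% ± 3.85 of the next places up to 100, 29.2% ± 4.30 of the places from there up to 1000 and 27.3% ± 6.22 of those after. With near copies merged these values were 23.3%, 31.8%, 31.7% and 27.2%. The mean for the top 10 places was the lowest, and its SD between mice exceeded its distance from the others. The largest clonotype of a tumor used a TRBJ1 segment in 2 of 24 tumors, the first tumors of mice 7 and 10. Of the 241 clonotypes that held a place in a top 10, ties included, 56 were TRBJ1, with 25 of TRBJ1-1, 11 of TRBJ1-4, 7 of TRBJ1-6, 6 of TRBJ1-3, 5 of TRBJ1-2 and 2 of TRBJ1-5. Of the 325 clonotypes with at least 1% of the counts of their tumor, 78 were TRBJ1. Clonotypes of at least 0.1% made up 2.56% ± 1.14 of TRBJ1 and 2.56% ± 1.05 of other clonotypes, a difference of -0.0065 percentage points (exact sign-flip permutation test, p = 0.956). After merging of near copies the shares were 4.18% and 4.69%, a difference of -0.511 (exact p = 0.0225).

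**Figure D3:**
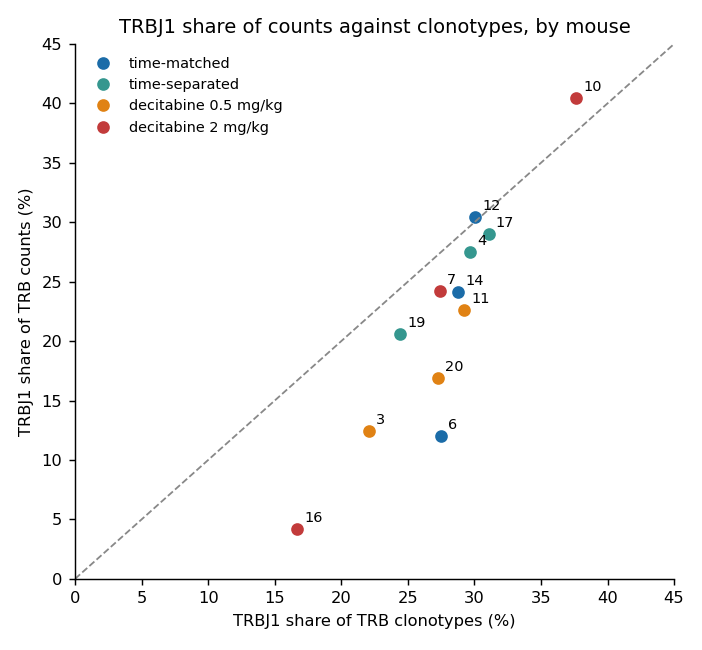
TRBJ1 share of TRB counts against TRBJ1 share of TRB clonotypes, both in percent. Each point is 1 of 12 mice, the mean of its 2 tumors, numbered by mouse and coloured by group, and the dashed line marks equal shares. The count share is the lower in 10 of 12 mice, with mice 10 and 12 above the line.

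No V segment passed the test for a difference in use between TRBJ1 and other TRB clonotypes. V segments bring the first bases of the CDR3 and the other 2 loops of the chain that touch the ligand. Of the 16 V segments with at least 1% of clonotypes that were tested, 0 (0.0%) differed in their share of TRBJ1 against other clonotypes (exact sign-flip permutation test over 12 mice, adjusted over 16), and 4 had an unadjusted p under 0.05. With near copies merged 0 passed and 6 had an unadjusted p under 0.05. TRBV13-1, the most used, held 13.3% ± 5.19 (SD, n = 12) of TRBJ1 and 19.0% ± 7.37 of other clonotypes (adjusted exact p = 0.191), but 13.0% and 13.6% after merging. The other 3 with an unadjusted p under 0.05 are named after their values were seen. TRBV1 held 6.30% of TRBJ1 and 4.40% of other clonotypes and was higher in 10 of 12 mice (adjusted exact p = 0.0859). TRBV2 held 3.55% against 2.28% and TRBV16 1.87% against 1.04% (adjusted exact p = 0.191 for each). After merging the values were 7.01% against 5.58% for TRBV1, 3.95% against 3.14% for TRBV2 and 1.81% against 1.72% for TRBV16. Without mouse 14, 1 V segment passed.

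The use of TRBV17 with each segment is given as a description without a test, since TRBV17 was picked after its values were seen. It was joined to 25.8% ± 18.0 of the TRBJ1-1 clonotypes of a mouse (SD, n = 12), or 14.8% ± 10.1 after merging. As listed, it was joined to 10.5% of TRBJ1-6, 8.41% of TRBJ1-5, 3.74% of TRBJ1-3, 2.40% of TRBJ1-4 and 1.37% of TRBJ1-2 clonotypes. For the non-TRBJ1 clonotypes the value was 14.7% ± 6.13 as listed and 9.72% after merging. The value for TRBJ1-1 varied widely between mice. The mean for TRBJ1-6 includes mouse 10 and that for TRBJ1-5 mouse 12, each with a large TRBV17 clonotype of that segment, described below. How far single mice carried these means was not tested.

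CDR3 length followed the segment rather than the cluster. The mean length over clonotypes was 13.6 amino acids ± 0.313 (SD, n = 12 mice) for TRBJ1 and 13.8 ± 0.391 for the other TRB clonotypes, with both end residues of the listed CDR3 counted. The difference of -0.203 did not pass (exact sign-flip permutation test, adjusted p = 0.311). TRBJ1-1 clonotypes were the shortest of the cluster at 12.7 ± 0.451, a difference of -1.13 from the other clonotypes, and lower in 12 of 12 mice (adjusted exact p = 0.00293). Short clonotypes were not particular to TRBJ1-1: those of TRBJ2-7, counted among the others, had a mean of 12.6 ± 0.634. The remaining TRBJ2 segments had means from 13.8 (TRBJ2-1) to 14.8 (TRBJ2-2). TRBJ1-3 and TRBJ1-4 clonotypes were longer than the others by 0.579 and 0.534, each in 10 of 12 mice (adjusted exact p = 0.0312 for both). These 2 calls were lost without any 1 of mice 3, 4, 11, 16, 17 or 20, with adjusted exact p values up to 0.0625, and with a minimum count of 1 (0.438 and 0.439, adjusted exact p = 0.103 for each). TRBJ1-4 also missed the threshold in the deeper tumor of each mouse (0.499, adjusted exact p = 0.0518), while after merging both held in 12 of 12 mice (adjusted exact p = 0.000977). TRBJ1-2 (-0.215, adjusted exact p = 0.105) and TRBJ1-6 (0.463, adjusted exact p = 0.0607) did not pass as listed. They passed after merging, with -0.235 (adjusted exact p = 0.00586) and 0.426 (adjusted exact p = 0.00615), and with a minimum count of 10, with -0.269 (adjusted exact p = 0.00293) and 0.393 (adjusted exact p = 0.0438). TRBJ1-5 did not differ beyond the spread between mice (-0.111, adjusted exact p = 0.641).

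The J ends printed above differ in the same order at both extremes. A TRBJ1-1 sequence matched 15.1 ± 0.936 bases of its shared end (SD, n = 12 mice, merged sequences) and a TRBJ1-3 sequence 19.8 ± 0.631, while the bases before that end were 23.8 ± 0.510 and 23.3 ± 0.666. The other segments matched 17.3 bases (TRBJ1-2), 18.0 (TRBJ1-5), 18.3 (TRBJ1-6) and 18.3 (TRBJ1-4), after 23.3 to 24.6 bases. Lengths of 11 amino acids made up 29.6% ± 18.2 of the TRBJ1-1 clonotypes and 12.5% ± 6.63 of the non-TRBJ1 clonotypes, or 19.0% ± 10.4 and 9.34% ± 4.03 with near copies merged. After merging, the most common length of TRBJ1-1 clonotypes was 14 amino acids, with 26.3% ± 7.93.

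**Figure D4:**
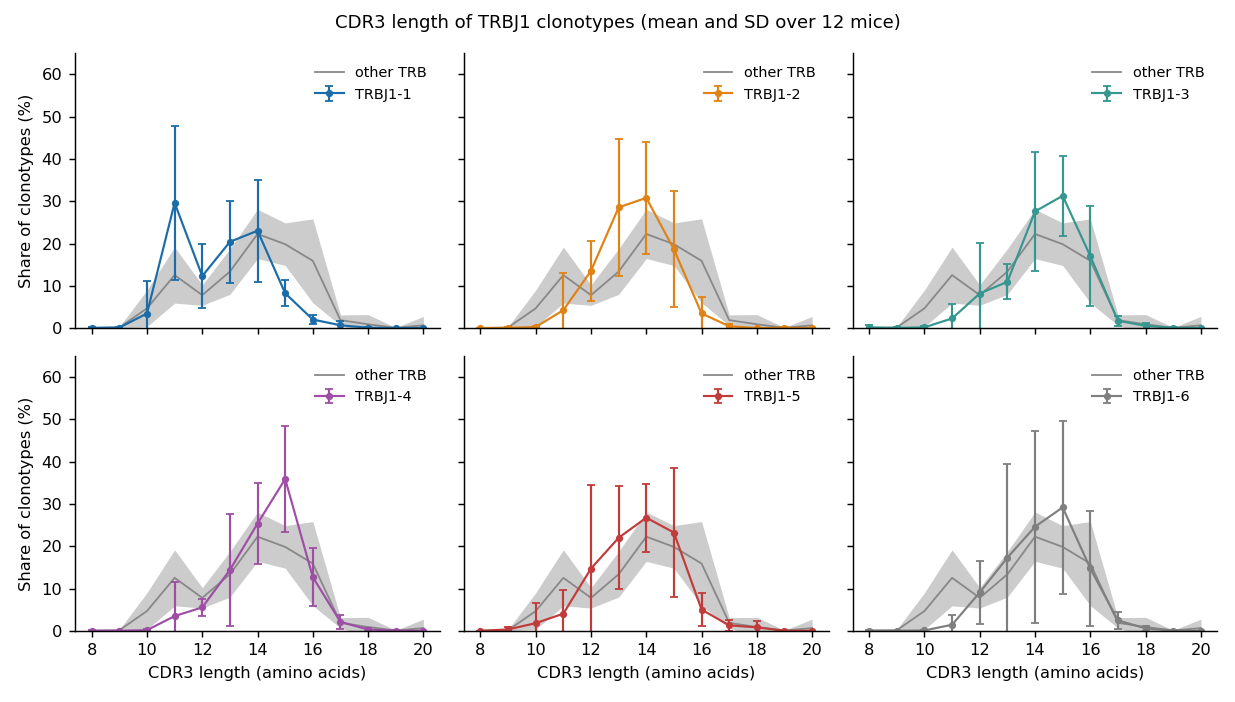
Share of clonotypes, in percent, at each CDR3 length in amino acids, with 1 panel for each TRBJ1 segment. Points and bars are the mean and SD over the 12 mice, and the grey line and band are the mean and SD of the non-TRBJ1 TRB clonotypes. TRBJ1-1 has its highest share at 11 amino acids, 29.6% ± 18.2, where the non-TRBJ1 clonotypes have 12.5% ± 6.63, with sequences as listed. With near copies merged, not drawn, its highest share is at 14 amino acids, 26.3% ± 7.93.

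The leading TRBJ1 clonotypes differed between most mice, and most of them used TRBJ1-1. The largest TRBJ1 clonotype of a tumor held 7.73% to 57.8% of its TRBJ1 counts (median 28.1%), and the 10 largest held 29.0% to 88.3% (median 70.5%). The largest TRBJ1 clonotype of the mouse used TRBJ1-1 in 8 of 12 mice. The sequences of 7 of them, all with over 5% of the counts of a tumor, are shown because they held much of the segment shares given above. Bases that match the shared J end are in capitals. The bases before them hold V, D and added bases and can also hold J bases that most sequences of the segment lack.
Mouse 10, TRBV17 with TRBJ1-6: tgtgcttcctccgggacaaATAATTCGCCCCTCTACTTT
Mouse 12, TRBV17 with TRBJ1-1: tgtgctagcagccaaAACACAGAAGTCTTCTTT
Mouse 17, TRBV13-1 with TRBJ1-2: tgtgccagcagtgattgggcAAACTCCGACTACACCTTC
Mouse 14, TRBV17 with TRBJ1-1: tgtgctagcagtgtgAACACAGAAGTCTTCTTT
Mouse 7, TRBV13-3 with TRBJ1-6: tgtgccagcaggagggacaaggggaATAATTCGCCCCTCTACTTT
Mouse 19, TRBV4 with TRBJ1-1: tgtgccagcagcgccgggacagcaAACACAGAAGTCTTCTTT
Mouse 4, TRBV3 with TRBJ1-4: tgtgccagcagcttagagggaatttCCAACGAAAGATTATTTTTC

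The clonotype of mouse 10 took 18.9% and 13.9% of the TRB counts of its 2 tumors, that of mouse 12 17.0% and 16.8%, and that of mouse 17 14.3% and 11.6%. In mice 14, 7 and 4 the values were 12.5% and 9.93%, 9.26% and 6.82%, and 6.79% and 3.31%. The clonotype was among the 5 largest of the tumor in both tumors of each of these 6 mice. Mouse 19 differed, with 0.523% in tumor 1 and 9.18% in tumor 2. The TRBJ1-2 clonotype of mouse 17 accounted for most of the 16.8% and 13.0% that the segment had there, and the TRBJ1-6 clonotype of mouse 10 for most of 22.3% and 15.6%.

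Other clonotypes added to the high values of single segments. In mouse 10 a TRBV13-1 clonotype with TRBJ1-4 held 4.03% and 10.1%, and in mouse 12 a TRBV17 clonotype with TRBJ1-5 held 5.55% and 3.70%. In mouse 14 a TRBV13-1 clonotype with TRBJ1-3 held 1.59% and 5.38%.
Mouse 10, TRBV13-1 with TRBJ1-4: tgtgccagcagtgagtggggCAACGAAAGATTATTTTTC
Mouse 12, TRBV17 with TRBJ1-5: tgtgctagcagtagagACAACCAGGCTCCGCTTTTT
Mouse 14, TRBV13-1 with TRBJ1-3: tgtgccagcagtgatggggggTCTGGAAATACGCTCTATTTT
The leading TRBJ1 clonotypes of mice 3, 6 and 16 were of TRBJ1-1 and smaller. The one of mouse 3 held 0.198% and 2.84%, that of mouse 6 held 2.33% and 2.04%, and that of mouse 16 held 1.03% and 0.125%.

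**Figure D5:**
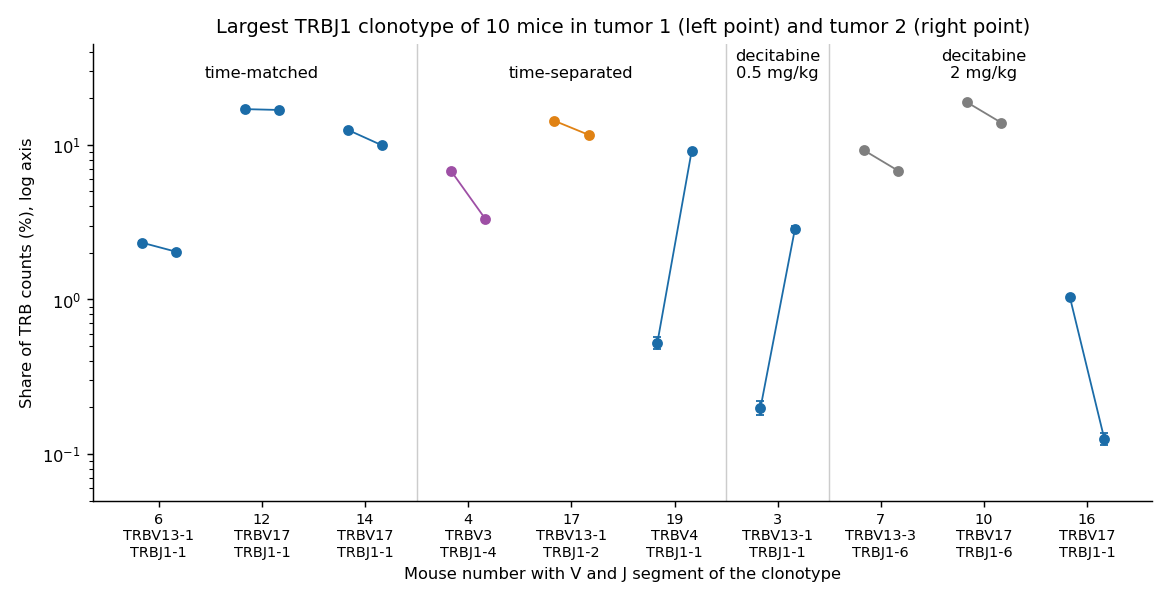
Share of TRB counts, in percent on a log axis, of the largest TRBJ1 clonotype of 10 of the 12 mice, with its V and J segment under the mouse number. The joined points are tumor 1 (left) and tumor 2 (right), colours are J segments, and bars are 95% exact binomial intervals, which cover counting error only. The points of mice 10, 12, 14 and 17 lie close together at the top, while those of mice 3, 16 and 19 are far apart, with mouse 19 at 0.523% and 9.18%.

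The leading clonotypes of mice 12 and 14 have the same V segment, J segment and a CDR3 of 11 amino acids. That of mouse 12 was found in 8 mice. Mice 17 and 19 carried it with another main sequence, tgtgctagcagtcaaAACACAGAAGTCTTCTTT, at 1350 and 1352 counts, while mice 3, 6, 7, 10 and 14 held the sequence of mouse 12 itself at 2 to 26 counts. That of mouse 14 was found in 9 mice, with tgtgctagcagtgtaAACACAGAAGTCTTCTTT at 1994 counts in mouse 11 and the sequence of mouse 14 itself at 2 to 18 counts in 7 more. The TRBV17 and TRBJ1-6 clonotype of mouse 10, with 119232 counts there, was likewise listed with 2 to 7 counts of the same sequence in 6 other mice. Low counts of an identical sequence in mice other than the one where it is large therefore make up much of the number of mice in which a large clonotype was listed, and whether they came from cells of those mice was not tested.

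All TRBV17 clonotypes with TRBJ1-1 and 11 amino acids together took from 0.0259% of the counts (tumor 2 of mouse 16) to 17.8% (tumor 1 of mouse 12). They made up 94.0% and 94.3% of the TRBJ1-1 counts in mouse 12 and 92.0% and 92.6% in mouse 14. In mouse 6, also time-matched, it made up 22.9% and 36.9%. Over the 18 tumors of the other groups the same kind of join made up 0.934% to 79.8% (median 23.7%) of the TRBJ1-1 counts, and over 50% in 4 of them. The high TRBJ1-1 shares of the time-matched group thus lay in 2 mice and in this one kind of join.

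Clonotypes of the segments from TRBJ1-2 to TRBJ1-6 were found in 8 mice at most. For TRBJ1-2 the one found in most mice was a TRBV3 clonotype in 8 mice with 4 main sequences and at most 198 counts in a mouse, for TRBJ1-3 a TRBV13-3 clonotype in 5 mice with 3 main sequences and at most 1146 counts, and for TRBJ1-5 a TRBV13-2 clonotype in 4 mice with 3 main sequences and at most 1399 counts. For TRBJ1-3 another clonotype was also found in 5 mice, and for TRBJ1-5 the TRBV17 clonotype of mouse 12 was also found in 4. That TRBV17 clonotype had 50334 counts in mouse 12 and 2 counts in each of mice 3, 4 and 11. For TRBJ1-6 it was the leading clonotype of mouse 10, with 1 main sequence. For TRBJ1-4 the leading clonotype of mouse 4 and the TRBV13-1 clonotype of mouse 10 were each found in 6 mice. The former had 17421 counts in mouse 4 and 2 to 42 in the other mice. The latter had 54414 counts in mouse 10 and 2 to 5 in the other mice. Of the distinct TRBJ1 clonotypes, 3.71% were found in at least 2 mice, against 4.99% of the non-TRBJ1 clonotypes, or 3.87% and 4.72% after merging. TRBJ1-1, with 5.78% (4.65% after merging), was the most shared segment of the cluster and TRBJ1-5, with 1.91% (1.58%), the least. With a minimum of 10 counts per mouse, 3.55% of TRBJ1 and 4.66% of non-TRBJ1 clonotypes were found in at least 2 mice. The largest number of mice for 1 clonotype was then 11 for TRBJ1-1, 8 for TRBJ1-2 and 4 for TRBJ1-5. For TRBJ1-3, TRBJ1-4 and TRBJ1-6 it was 5.

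TRBJ1 clonotypes were found in both tumors of a mouse less often than other clonotypes were. The share was 15.0% ± 7.21 against 20.6% ± 6.52 (SD, n = 12), lower in 12 of 12 mice (permutation test by exact sign flips, p = 0.000488, the smallest it can give). With near copies merged it was 10.8% against 12.3%, lower in 11 of 12 mice (exact p = 0.00439). By merged counts summed over both tumors, 5.78% of TRBJ1 clonotypes with 4 to 9 counts were found in both against 11.8% of the others, and 7.65% against 10.4% from 10 to below 100 counts. From 100 to below 1000 counts the shares were 56.0% and 54.9%, and from 1000 counts 94.2% and 94.1%. Without merging, TRBJ1 clonotypes had the lower mean in each class: 19.4% against 28.6%, 16.9% against 27.2%, 59.8% against 63.8% and 94.2% against 95.2%. These shares by size are descriptions without a test, and the size classes were not compared with each other.

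The TRBJ1 share differed between the tumors of a mouse by 1.78 percentage points ± 0.740 in the time-matched mice and by 6.03 ± 4.69 in the 9 mice whose tumors were taken 11 days apart (SD, n = 3 and 9). The ranges, 1.17 to 2.60 and 1.33 to 17.0, overlapped, and the difference of -4.25 did not pass (exact permutation test, p = 0.168). For TRBJ1-4 the ranges did not overlap, with 0.0820 to 0.200 in the time-matched and 0.391 to 4.39 in the other mice (exact permutation test, p = 0.0364, adjusted exact p = 0.239 over the cluster and 6 segments). All but 3 of the other 18 tumors were also shallower than the time-matched ones. With every library thinned to 63291 counts the difference for the cluster was -4.28 (exact permutation test, p = 0.168), and for TRBJ1-4 the part of depth was not tested.

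The sign of this difference was looked at after its values were seen. Tumor 2 had a lower TRBJ1 share of counts than tumor 1 in 9 of the 9 mice with tumors taken 11 days apart. The values were -17.0 in mouse 7, -8.09 in mouse 19, -6.78 in mouse 10, -6.43 in mouse 17, -5.15 in mouse 4, -4.50 in mouse 3, -3.29 in mouse 20, -1.76 in mouse 16 and -1.33 in mouse 11. In the time-matched mice 6, 12 and 14 the differences were 1.56, -2.60 and -1.17. The mean over the 9 mice was -6.03 ± 4.69 (exact sign-flip permutation test, adjusted p = 0.0273 over the cluster and 6 segments), and -5.11 without the largest TRB clonotype of each mouse (adjusted exact p = 0.0273). TRBJ1-3 (-1.40, lower in 8 mice) and TRBJ1-5 (-0.561, lower in 7) also passed (adjusted exact p = 0.0365 for each), and the other 4 segments did not. By share of clonotypes tumor 2 was lower in 7 of the 9 mice (-3.88, adjusted exact p = 0.0492), but after merging the difference of -0.837 did not pass (adjusted exact p = 0.711). Tumor 2 was also the shallower library in all but 2 of the 9 mice, mice 10 and 19, and the part of depth was not tested. The test was run on the values that prompted it. Since the labels tie neither tumor number to the earlier or later date, the sign has no direction in time here.

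D segment calls separated the clusters. With near copies merged, TRBJ1 sequences had TRBD1 called in 63.2% ± 3.45 (SD, n = 12 mice), TRBD2 in 8.70% ± 1.34 and no D segment in 28.1% ± 3.11. TRBJ2 sequences had TRBD1 called in 35.1% ± 2.74, TRBD2 in 45.8% ± 2.42 and none in 19.1% ± 3.65. The ranges over mice did not overlap for TRBD1 or for TRBD2. TRBJ1-4 had the highest share of TRBD1 calls in the cluster, 69.9% ± 5.01, and TRBJ1-3 the highest share of TRBD2 calls, 12.7% ± 7.20. Given the locus order described above, a TRBD2 call in a TRBJ1 sequence need not mark use of TRBD2. The accuracy of the D calls was not tested.

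Sequences marked with a stop codon, which encode no working chain, lie outside the rule and were set beside the retained ones. There were 28943 of them with a count of at least 2, of which 74.0% held an uncalled base. TRBJ1 made up 25.2% ± 4.75 of the stop-marked and 26.2% ± 5.79 of the retained nucleotide sequences (SD, n = 12 mice), a difference of -1.02 (exact sign-flip permutation test, adjusted p = 0.581). It was -5.20 when near copies among the retained sequences were merged (adjusted exact p = 0.00586) and -5.48 with a minimum count of 10 (adjusted exact p = 0.0371), so this call depends on the processing. In the 12.1% left after sequences with uncalled bases and those close to a retained sequence were taken out, with 28 to 259 per tumor, TRBJ1 made up 33.9% ± 9.78 (difference 7.71, higher in 10 of 12 mice, adjusted exact p = 0.0410). Against retained sequences with near copies merged, at 30.4%, this difference was 3.52 (adjusted exact p = 0.582). TRBJ1-6 made up 2.41% ± 1.86 of all stop-marked sequences against 3.56% ± 2.70 of the retained ones, which did not pass (adjusted exact p = 0.0957). In the restricted set it made up 0.235% ± 0.425 of the stop-marked sequences and was lower in 12 of 12 mice (adjusted exact p = 0.00342 against retained and against merged sequences). TRBJ1-3 was higher in that set, with 9.05% ± 8.55 against 3.53% ± 1.19 of the retained sequences, in 9 of 12 mice (adjusted exact p = 0.0439), but did not pass against merged sequences (adjusted exact p = 0.507).

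The segments whose share of clonotypes over the 12 mice was most like that of the TRBJ1 cluster were TRBV2 (Spearman's rho 0.62, Pearson's r 0.66), TRBV3 (rho 0.57, r 0.01), TRBV16 (rho 0.54, r 0.55) and, among the TRBJ2 segments, TRBJ2-3 (rho 0.44, r 0.35). After merging, TRBV16 (rho 0.65), TRBV2 (0.54) and TRBV19 (0.48) ranked first. These are descriptions over 12 mice, since all shares of a library sum to 100 and the segments are counted in the same sequences.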

How the data were processed

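TCRβ and TCRα libraries of 24 whole tumors (12 mice, 4 groups of 3 mice) were made with a SMARTer-based mouse TCR kit with unique molecular identifiers and processed by the authors with Cogent NGS Immune Profiler 2.0. The deposited tables list each CDR3 nucleotide and amino acid sequence with its V, D, J and C calls, its CDR3 length and a whole-number count, which the tables call reads. The authors' methods describe an analysis based on molecular identifiers in this software but call the retained values reads, and whether 1 deposited count is 1 molecule is not stated. The lengths used here are those of the listed amino acid sequences. No column of the authors' comparisons was present.

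TRB rows with no stop codon mark and a count of at least 2 were kept, and rows of equal V segment, J segment and CDR3 amino acids were summed into clonotypes. Shares were taken of all kept TRB rows of the tumor, averaged over the 2 tumors of a mouse, and tested over mice. Groups were compared by exact permutation of mice and paired values by exact sign flips, both two-sided, with a threshold of 0.05 and Benjamini-Hochberg adjustment. Where no other family is given in the paragraph, this ran over 6 tests (the cluster and its 5 listed segments), and over 7 for a value of TRBJ1-6, which was added to them. Nothing but the mouse number identifies replicates. Tests on simulated tables recovered 4 of 4 planted V segments among 16, with 0 false calls. The simulated tables gave TRBJ1 and other clonotypes the same variation from tumor to tumor. In the real data the SD of the difference over mice was 1.56 (TRBV29) to 12.3 (TRBV17) percentage points. The simulation therefore does not show what size of difference could be found in the real data. Tables were read with pandas 2.3.3 and tests run with numpy 2.4.6 and scipy 1.17.1 under Python 3.11.15, and figures were drawn with matplotlib 3.10.9. The order of the segments in the locus was read from a RefSeq gene table (GRCm38.p6), and no genome was used.

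The members, lists and tests were chosen with earlier results of these data known. The clonotypes named are the largest TRBJ1 clonotype of each mouse, the largest of each segment in any tumor and, for each segment, the one found in most mice. A clonotype that met this rule is not reported here. V segments to be named were those that passed and the most used, and likeness was ranked by Spearman's rho for the top 3 V segments and the top TRBJ2 segment. Alternatives were a minimum count of 1 or 10, nucleotide clonotypes, thinning to 63291 counts (20 draws), no minimum on V segments, a 1% limit for large clonotypes, leaving out the largest TRB clonotype of every mouse, a stricter CDR3 filter, the deeper tumor only and each mouse left out. Chosen after seeing the data were the merging of near copies, TRBJ1-6 counted with the other rows, 15 pairs of segments, the restricted stop-marked set, that set against merged retained sequences, size classes for clonotypes in both tumors, a minimum of 10 counts per mouse for sharing, the signed difference between the tumors of a mouse, lengths with near copies merged and the TRBJ1-2 contrast without mouse 17.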

Additional observations from a re-analysis of the deposited data

Results flagged for a closer look

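Among 56 sets of 6 tumors, 1 tumor lay far from the rest of its group in 4, where chance gives about 1 in 20 for independent values. The 6 tumors came from 3 mice and the sets overlap, so that rate does not hold strictly here. Tumor 2 of mouse 19, in the time-separated group, had 19.3% of its clonotypes in the TRBJ1 cluster, while the nearest of the other 5 tumors had 28.0%. For TRBJ1-5, tumor 1 of mouse 20 held 1.71% of the counts against a nearest value of 0.816% in the decitabine 0.5 mg/kg group. In the decitabine 2 mg/kg group, tumor 1 of mouse 10 held 1.42% of the counts against 0.343% and 2.76% of the clonotypes against 1.29%.

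The difference between the count share and the clonotype share of TRBJ1-2 differed between the 4 groups (exact permutation test over mice, adjusted p = 0.0391 over the cluster and 6 segments, and 0.000909 with near copies merged). The difference was -2.25 ± 0.577 percentage points (SD, n = 3 mice) in the time-matched, 1.49 ± 4.54 in the time-separated, -1.56 ± 0.401 in the decitabine 0.5 mg/kg and -1.99 in the decitabine 2 mg/kg mice. As listed it rested on mouse 17, whose TRBV13-1 clonotype with TRBJ1-2 is described above: without that mouse the adjusted exact p was 0.350. It still passed without mouse 17 once near copies were merged (adjusted exact p = 0.00545), at -3.30 in the time-matched, -1.17 in the 2 remaining time-separated, -2.15 in the decitabine 0.5 mg/kg and -3.15 in the decitabine 2 mg/kg mice.

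TRBJ1 segments also appeared in the TCRα tables, where none belong, with at most 5 counts in a tumor (tumor 1 of mouse 10 and tumor 2 of mouse 14), 16 counts in all and 0 in 19 of 24 tumors. Those 2 tumors were the only ones above the 3 counts that a count of 0 allows.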

How the results depend on the processing

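The share of TRBJ1 in the 4 groups, the length of the cluster and the clonotypes in both tumors kept their direction and their side of the threshold in every setting run, except where a value is given here. Pairs of segments separated by clonotypes, 8 of 10, were 7 to 9 in the other settings and 11 of 15 with TRBJ1-6. Counts minus clonotypes became -2.16 (not passing) without the largest clonotype of each mouse. The time-matched minus time-separated share of counts, 0.205, was 10.4 without the largest clonotypes, where the 4 group means spanned 13.8 in place of 8.39 (neither passing). It turned to -2.05 with the deeper tumor of each mouse and ran from -3.92 (without mouse 12) to 5.30 with 1 mouse left out, none passing. With 1 mouse left out that of clonotypes ran from 0.178 to 2.80, and the 4 group means spanned 5.96 to 15.0 by counts and 1.52 to 6.72 by clonotypes, none passing. Turned values came without mice 3 (-0.985), 12 (-3.92), 14 (-0.758), 16 (-2.02) and 20 (-0.433). The V segments called were 0 to 1 with 1 mouse left out (1 without mouse 14). For clonotypes of at least 0.1%, the difference of -0.0065 was -0.128 at 1% (passing), -0.511 with near copies merged (passing), 0.165 with TRBJ1-6 among the other rows, 0.0179 with a minimum count of 1, 0.167 for nucleotide clonotypes, and -0.0613 to 0.0630 with 1 mouse left out. Pairs of segments separated by counts were 3 of 15 with TRBJ1-6 and 3 to 6 with 1 mouse left out. For stop-marked sequences, the difference of -1.02 was 0.135 with TRBJ1-6 among the other rows, 7.71 and 3.52 in the restricted set against listed and merged sequences, -5.20 (passing) when the retained sequences were merged, and -5.48 (passing) with a minimum count of 10. Of single segments, counts minus clonotypes turned to 1.72 (TRBJ1-1) and -0.676 (TRBJ1-6) without the largest clonotypes, and for TRBJ1-6 ran from -0.499 (without mouse 10) to 0.511 with 1 mouse left out. The length difference of TRBJ1-5 ran from -0.209 to 0.0290 with 1 mouse left out, above 0 without mouse 12 and without mouse 19 (0.0083). The causes were not tested. The mouse pairs the tumors, and the paired tests within mice are those reported. Between groups, no paired analysis was possible because the groups share no mouse number. Counting error is small at these depths if each count is a separate molecule, which is not stated. The 3 mice a group limit every comparison between groups.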
